A study of Mus musculus with 12 samples.

Results

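The 6 mRNAs described here are the mitochondrial-encoded mRNAs of respiratory complexes III, IV and V, namely mt-Cytb, mt-Co1, mt-Co2, mt-Co3, mt-Atp6 and mt-Atp8. Their genes are 6 of the 13 protein-coding genes of the mouse mitochondrial genome. They are also 6 of the 35523 genes to which the transcripts of these libraries were summed. Here mRNAs are counted by gene, although mt-Atp8 and mt-Atp6 share an mRNA. The group was chosen by its polysome levels, which were lower in cells treated with rosiglitazone (Rosi) than in vehicle (Veh), so that comparison, and those of the same polysome libraries with input, are given as descriptions with no p-value for the 6, and counts of thresholds passed there describe the choice. All 6 were measured in every library and passed the filter on low counts in every comparison. In total RNA none of the 6 was called different between Rosi and Veh. As a description, their polysome level relative to total RNA was lower in Rosi than in Veh for each of the 6. It was also lower for each of the 7 mitochondrial-encoded mRNAs of complex I. The main fit across all genes called this difference for none of the 6, while some alternative fits called it for mt-Co2.

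Mitochondrial mRNAs are transcribed from the circular mitochondrial genome as long precursor RNAs, cut apart mostly at the tRNAs between them, and given short poly(A) tails. They are translated inside the organelle by mitochondrial ribosomes, whereas nuclear mRNAs are translated by cytosolic ribosomes, the ribosomes on which cycloheximide acts. Every complex containing these proteins also needs nuclear-encoded subunits made in the cytosol and imported. In adipocytes, mitochondria oxidize fuel and supply the citrate and ATP used in lipid synthesis.

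The cells were the stromal vascular fraction (SVF), the non-adipocyte cells of the tissue, from the epididymal fat (eWAT) of 12-week-old male Lepob/Lepob (ob/ob) mice, which lack leptin and are obese. They were grown in culture and differentiated with a cocktail of IBMX, dexamethasone and insulin, with 1 µM Rosi, which activates PPARγ, the master regulator of fat cell formation, or with Veh (DMSO). They were collected on day 4 by the protocols, while the design text gives 3 days. Cycloheximide was given before lysis in all groups, and poly(A) libraries were made from total RNA (input) and from pooled gradient fractions (polysome), those with at least 3 ribosomes per mRNA by the series text and over 3 by the methods. All mice were ob/ob, so no lean control is part of the comparison, and the number of mice behind each culture was not given.

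Each fraction of each treatment had 3 deposited libraries. Replicates 2 and 3 of input Veh held identical values and entered as a single library, so input Veh has n = 2 and every other group n = 3. The 11 distinct libraries held 17.4 to 24.02 M estimated reads each. Summed markers of adipocytes (10 genes) were at 80.7 to 85.7 CPM (reads per 1 M, after scaling between libraries) in input Veh and at 669 to 768 CPM in input Rosi, and at 125 to 169.6 and 1266 to 1537 CPM in polysome Veh and polysome Rosi. Summed macrophage markers (12 genes) were far more abundant, at 17255 to 19946 CPM in input Veh, 12428 to 14606 in input Rosi, 16829 to 21745 in polysome Veh and 15082 to 19023 in polysome Rosi. Markers of progenitors (9 genes) were at 5087 to 6452 CPM over all input libraries and 2526 to 3347 CPM over all polysome libraries. Those of smooth muscle and pericytes (7 genes) were at 11596 to 11718 CPM in input Veh and, lower without overlap, at 10171 to 10713 CPM in input Rosi. In polysome the 2 treatments overlapped, at 7530 to 9100 CPM over all libraries. Among 6 lymphocyte markers, the T cell genes Cd3e and Cd3g were at 0 in every library, and the list summed to at most 0.267 CPM. Among 5 erythroid markers, Hba-a2 and Hbb-bs were at 0, and the list summed to at most 0.214 CPM. Among 5 neutrophil markers S100a9 was at 0, but the list summed to 3.21 to 4.95 CPM, with 2 members at a mean of 1 CPM or more. Of 6 markers of the epididymis, which borders this fat, Defb2, Lcn8, Lcn9 and Adam7 were at 0, but the list summed to 111.9 to 124.7 CPM in input Veh, 72.5 to 91.8 in input Rosi, 156 to 256 in polysome Veh and 132 to 160.1 in polysome Rosi, with Crisp1 its 1 member at a mean of 1 CPM or more. In input Crisp1 was at −0.49 ± 0.12 between Rosi and Veh (edgeR adjusted p = 0.0613), and DESeq2 called it lower. In bulk RNA of this kind, fewer cells of a type and less RNA per cell cannot be told apart, and the part of cell composition in the results below was not tested.

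The 6 genes lie on the same strand of the mitochondrial genome (mm10, chrM, + strand). The order along it is mt-Co1 (chrM:5328-6872), mt-Co2 (chrM:7013-7696), mt-Atp8 (chrM:7766-7969), mt-Atp6 (chrM:7927-8607), mt-Co3 (chrM:8607-9390) and, further on, mt-Cytb (chrM:14145-15288). The annotation gives each a single exon without UTRs, from 204 bases (mt-Atp8) to 1545 bases (mt-Co1). Neighbouring reading frames share bases, and reads there fall in both genes. The last 43 bases of mt-Atp8 are also the first 43 of mt-Atp6, and both proteins are made from 1 bicistronic mRNA. In the stretch shown first (MT:7918-7978), the capitals mark the start codon of mt-Atp6 and the stop codon of mt-Atp8. In the stretch shown second (MT:8587-8627), the capitals mark the stop codon of mt-Atp6, whose last base is the first base of the start codon of mt-Co3. All sequences are read from the RefSeq GRCm38.p6 genome, 5′ to 3′.
mt-Atp8 into mt-Atp6: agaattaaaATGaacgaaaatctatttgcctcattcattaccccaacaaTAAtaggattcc
mt-Atp6 into mt-Co3: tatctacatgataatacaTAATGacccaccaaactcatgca

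The 3′ ends also differ among the 6. The annotated mt-Cytb and mt-Co3 end on a single T past the last complete codon, a stop codon that the poly(A) tail completes, while mt-Co1, mt-Co2, mt-Atp6 and mt-Atp8 carry a full TAA. The last 30 bases of 3 of them are shown with the stop codon, or the T that begins it, in capitals (mt-Cytb at MT:15259-15288, mt-Co3 at MT:9361-9390 and mt-Co1 at MT:6843-6872).
mt-Cytb 3′ end: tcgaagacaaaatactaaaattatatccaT
mt-Co3 3′ end: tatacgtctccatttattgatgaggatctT
mt-Co1 3′ end: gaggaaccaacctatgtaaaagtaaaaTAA

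Copies of mitochondrial genes in the nuclear genome bear on the values of 4 of the 6. A search of the annotated transcripts found 10 nuclear copies of the 6 (at least 90% identity over at least 100 bases). A block on chromosome 1, - strand, holds Gm28661 (chr1:24614885-24615565), identical to mt-Co2 over 681 of 681 bases. The same block holds Gm10925, identical to mt-Atp6 over 678 bases, and Gm28437, identical to mt-Co3 over 783 bases. It also holds Gm29216, which matches the last 483 bases of mt-Co1 with 1 difference, A1066T, counted from the first base of mt-Co1. The copy of mt-Cytb, Gm11410 on chromosome 4, is 92.9% identical and had 0 reads in every library, and no copy of mt-Atp8 was found. The first 60 bases of mt-Co2 (MT:7013-7072) and of Gm28661 (chr1:24615506-24615565, - strand) show why reads cannot be assigned to one or the other from their sequence. The start codon is in capitals.
mt-Co2: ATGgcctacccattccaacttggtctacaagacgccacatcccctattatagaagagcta
Gm28661: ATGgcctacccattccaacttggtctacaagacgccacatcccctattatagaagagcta

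The deposited estimates divided such reads unevenly between libraries. Gm28661 took 48.7% of the reads of the pair in polysome Veh replicate 3, 24.6% in polysome Rosi replicate 1 and 12.8% in input Rosi replicate 2, but 0.110% in input Veh replicate 1 and 0 in polysome Rosi replicate 3. Gm10925 took 31.3% of its pair in polysome Veh replicate 3 and 30.1% and 22.0% in input Rosi replicates 2 and 3, against at most 5.95% in the other libraries. Gm28437 took 13.1% in polysome Veh replicate 3 and 12.8% in polysome Rosi replicate 1, and at most 2.61% elsewhere. These 3 shares varied widely between replicates of 1 group. Gm29216 behaved differently, with 12.3 to 18.5% of the reads of its pair in every input library and 1.03 to 3.92% in every polysome library. For these reasons each value is given as deposited and, for mt-Co1, mt-Co2, mt-Co3 and mt-Atp6, again with the copies added to the mitochondrial gene, which removes the division between them.

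**Figure D1:**
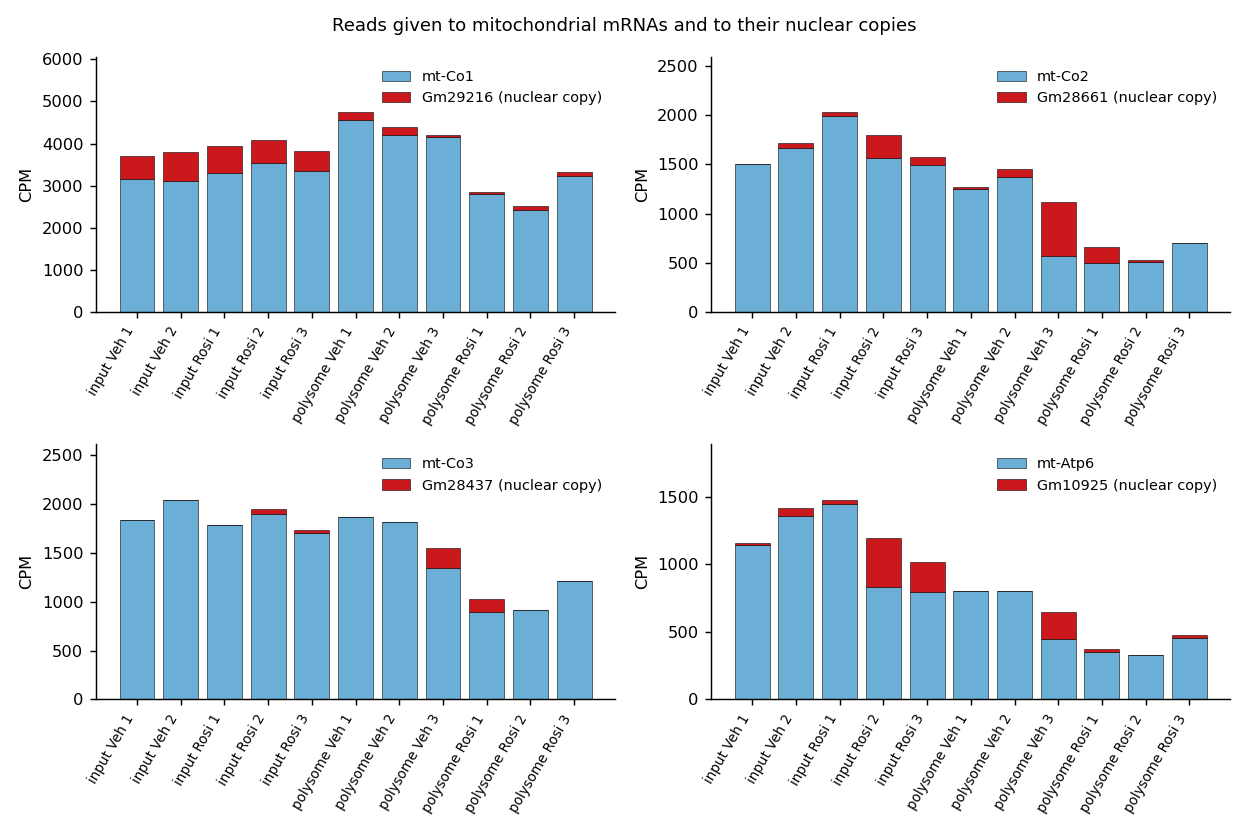
Stacked bars of CPM (vertical axis, scaled reads per 1 M) in each of the 11 libraries (horizontal axis) for 4 mitochondrial mRNAs (blue) and their nuclear copies on chromosome 1 (red). The copy of mt-Co2 holds 48.7% of the pair in polysome Veh replicate 3, and the copy of mt-Co1 holds 12.3 to 18.5% in input and 1.03 to 3.92% in polysome.

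The bars show that the total of mt-Co2 and its copy in polysome Veh replicate 3 was 1115 CPM, close to the 1274 and 1448 CPM of the other polysome Veh libraries, while mt-Co2 alone was at 572 CPM there. The spread of mt-Co2 in polysome Veh fell accordingly, from 1062 ± 429 CPM as deposited to 1279 ± 166 CPM with copies added (mean ± SD, n = 3). For mt-Atp6 in input Rosi the SD went from 366 CPM around a mean of 1026 to 230 CPM around 1230 with copies added (n = 3).

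Per length, the 6 mRNAs were all abundant. In TPM, a level per length that divides reads by the length over which a fragment can start, the order in input Veh was mt-Co2 at 4758, mt-Co3 at 4675, mt-Atp6 at 3767, mt-Atp8 at 3515, mt-Co1 at 2884 and mt-Cytb at 1586 TPM (means, n = 2). Only mt-Co2 and mt-Co3 overlapped among neighbours in that order. In input Rosi the order was mt-Co2 at 5492, mt-Co3 at 4713, mt-Atp8 at 3664, mt-Co1 at 3409, mt-Atp6 at 3353 and mt-Cytb at 2054 TPM, and mt-Co1 overlapped with both mt-Atp8 and mt-Atp6 (n = 3). In polysome Veh mt-Co3 stood at 4275, mt-Co1 at 4222, mt-Co2 at 3363, mt-Cytb at 2654, mt-Atp8 at 2471 and mt-Atp6 at 2179 TPM (n = 3), with every pair of neighbours overlapping. The order in polysome Rosi was mt-Co1 at 2783, mt-Co3 at 2603, mt-Cytb at 2158, mt-Co2 at 1819.9, mt-Atp8 at 1390.0 and mt-Atp6 at 1228 TPM, again with every pair of neighbours overlapping. Thus mt-Cytb was last in both input groups and in the middle of the order in both polysome groups, where mt-Atp6 was last. Fragments longer than a short mRNA leave few starting positions, and for mt-Atp8 the deposited effective length was 27.6 to 28.4 of 204 bases, so its TPM rests on a large correction. Divided by annotated length instead, mt-Atp8 was last in all 4 groups. For mt-Co1 the effective length was 1214 to 1223 of 1545 bases. With the TPM of the nuclear copies added, mt-Co1 came first in all 4 groups, but the TPM of Gm29216 divides its reads by its own short length, so this place depends on how the values were added.

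In CPM, mt-Cytb, the only complex III subunit made in mitochondria, was at 1105 and 1207 in input Veh and at 1501, 1378 and 1249 in input Rosi. It was at 2091, 1688 and 1692 in polysome Veh and at 1316, 1261 and 1841 in polysome Rosi. The input Rosi libraries all lay above the input Veh libraries, the polysome Veh libraries all lay above both input groups, and the polysome Rosi libraries overlapped with input Rosi and with polysome Veh.

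The core of cytochrome c oxidase (complex IV), in which oxygen is reduced, is built from mt-Co1, mt-Co2 and mt-Co3. Of these, mt-Co1, which holds the oxygen-reducing site, was at 3147 and 3104 CPM in input Veh and 3302, 3546 and 3347 CPM in input Rosi. It was at 4570, 4214 and 4161 CPM in polysome Veh and at 2805, 2429 and 3235 CPM in polysome Rosi. Polysome Veh lay above all other groups and input Rosi above input Veh, and the highest polysome Rosi library exceeded both input Veh libraries while the other 2 lay below them. With Gm29216 added, mt-Co1 was at 3711 and 3811 CPM in input Veh, 3937, 4087 and 3816 in input Rosi, 4738, 4386 and 4205 in polysome Veh and 2852, 2515 and 3325 in polysome Rosi, and no 2 of these groups overlapped.

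The subunit that takes electrons from cytochrome c, mt-Co2, was with its copies at 1508 and 1720 CPM in input Veh, 2028, 1798 and 1571 in input Rosi, 1274, 1448 and 1115 in polysome Veh and 663, 529 and 696 in polysome Rosi. As deposited it was at 1506 and 1670 CPM, at 1996, 1568 and 1491 CPM, at 1246, 1368 and 572 CPM, and at 500.01, 506 and 696 CPM in the same order. The polysome Rosi mean was lowest and the input groups overlapped in both versions. The library of polysome Veh replicate 3 fell within the polysome Rosi range as deposited and above it with copies added. The remaining subunit of the core, mt-Co3, was with its copy at 1842 and 2040.0 CPM in input Veh, 1783, 1948 and 1731 in input Rosi, 1866, 1813 and 1546 in polysome Veh and 1030.3, 914 and 1217 in polysome Rosi. Its first 3 groups overlapped, and all 3 polysome Rosi libraries lay below them, as they did as deposited.

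ATP synthase (complex V) takes mt-Atp6, part of its proton channel, and mt-Atp8, a small subunit of its membrane part. With its copies mt-Atp6 was at 1161 and 1417 CPM in input Veh, 1476, 1194 and 1021 in input Rosi, 800.2, 799.8 and 651 in polysome Veh and 372, 333 and 480.4 in polysome Rosi. As deposited it was at 1143 and 1357 CPM, at 1448, 835 and 796 CPM, at 800.0, 799.7 and 447 CPM, and at 350.1, 333 and 456 CPM. The drop of polysome Veh replicate 3 into the polysome Rosi range was again seen as deposited but not with copies added. The short mt-Atp8, which has no nuclear copy, was at 85.0 and 92.1 CPM in input Veh, 91.9, 85.5 and 73.0 in input Rosi, 65.8, 50.8 and 58.0 in polysome Veh and 29.6, 27.4 and 40.7 in polysome Rosi. The 2 input groups overlapped, and each polysome group lay below input and apart from the other.

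**Figure D2:**
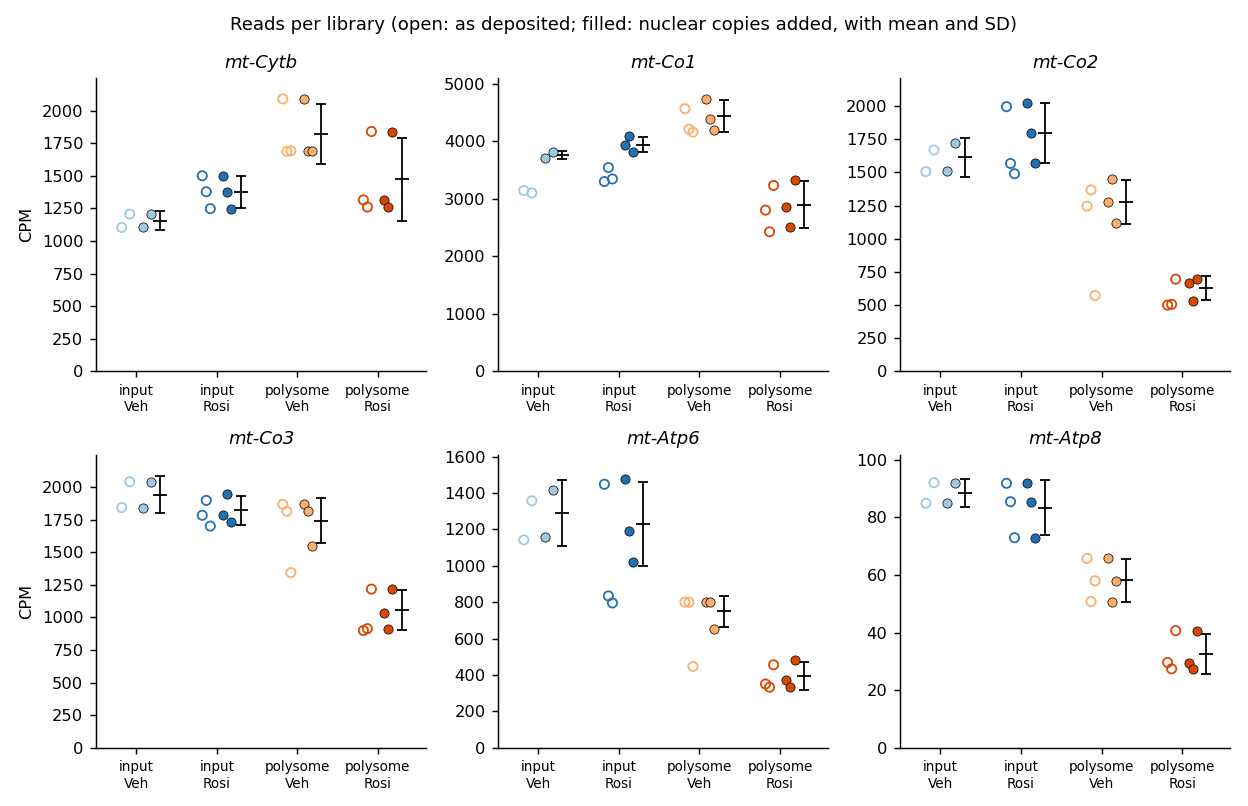
CPM of each of the 6 mRNAs (vertical axes, scaled reads per 1 M) by group, with 1 point per library, open as deposited and filled with nuclear copies added. Bars give the mean and SD of the filled points, and with copies added the polysome Rosi libraries lie below the polysome Veh libraries for 5 of the 6 mRNAs.

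Rosi against Veh in total RNA asks whether the treatment changed the amount of these mRNAs. None of the 6 was called in edgeR's quasi-likelihood test, where a call needs a Benjamini-Hochberg adjusted p under 0.05 over all genes and an absolute log2 fold change over 0.2, against 1.34% of all genes tested. The largest log2 fold change was that of mt-Cytb, 0.32 ± 0.09 (SE, adjusted p = 0.106). It was 0.19 ± 0.08 for mt-Co1 (adjusted p = 0.247), 0.15 ± 0.11 for mt-Co2 (adjusted p = 0.485), and −0.05 ± 0.08 for mt-Co3 (adjusted p = 0.814). For the complex V mRNAs it was −0.22 ± 0.19 for mt-Atp6 (adjusted p = 0.560) and −0.02 ± 0.10 for mt-Atp8 (adjusted p = 0.946). Without adjustment p was under 0.05 for 2, mt-Cytb and mt-Co1, where it was for 2312 of all 13603 genes. DESeq2 called 1, mt-Cytb, at 0.30 (adjusted p = 0.0442), while limma on TPM called 0. With copies added none was called either, against 1.46% of all genes, and mt-Atp6 moved to −0.00 ± 0.13 (adjusted p = 0.996). In that version mt-Co1 was at 0.14 ± 0.08 and mt-Co2 at 0.22 ± 0.10. Its unadjusted p was under 0.05 for mt-Cytb and mt-Co2 but not mt-Co1, where it was for 2319 of 13598 genes. With copies added the libraries of mt-Cytb and mt-Co1 did not overlap, higher in Rosi, which is 2 of 6 against 12.8% of all genes. Without input Rosi replicate 1 the call of mt-Cytb was gained (0.26, adjusted p = 0.0476), and mt-Atp6 was called as deposited (−0.54, adjusted p = 0.000634) but not with copies added (−0.14, adjusted p = 0.351).

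In polysome RNA, the comparison behind the choice of these genes, all 6 had negative log2 fold changes between Rosi and Veh. As deposited they were −0.32 ± 0.15 for mt-Cytb, −0.62 ± 0.12 for mt-Co1, −0.92 ± 0.25 for mt-Co2, −0.74 ± 0.15 for mt-Co3, −0.86 ± 0.20 for mt-Atp6 and −0.85 ± 0.16 for mt-Atp8, with a median of −0.79 against −0.01 over all genes tested. With copies added, mt-Co2 was at −1.03 ± 0.13, mt-Atp6 at −0.93 ± 0.14, mt-Co3 at −0.73 ± 0.13 and mt-Co1 at −0.63 ± 0.12. The thresholds were passed by 2 of the 6 as deposited, mt-Co1 and mt-Atp8, where 0.655% of genes were called and 0.0223% called lower, and by 5 with copies added, all but mt-Cytb, where 0.692% were called and 0.0596% called lower. The libraries did not overlap, lower in Rosi, for these 5 with copies added, against 4.39% of genes. The count as deposited was 0 without polysome Veh replicate 2, polysome Rosi replicate 1 or polysome Rosi replicate 2, and 5 without polysome Veh replicate 3. With copies added it was 1 without polysome Veh replicate 2 and 2 without polysome Rosi replicate 1 or 2. Since the genes were chosen on these libraries, the counts describe the choice.

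**Figure D3:**
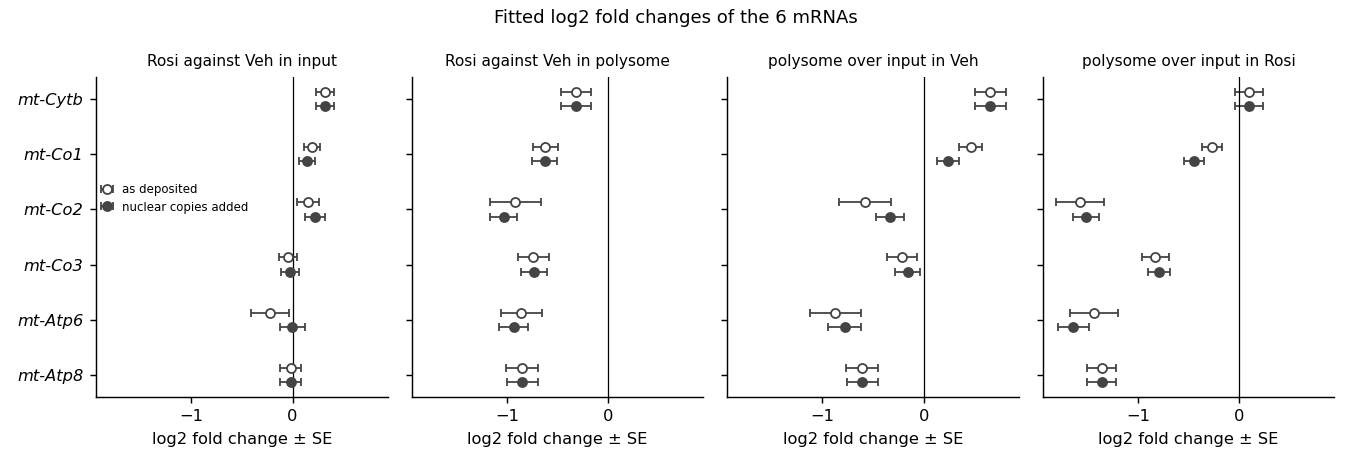
Log2 fold change ± SE (horizontal axes, from the edgeR fits) of the 6 mRNAs in 4 comparisons, open as deposited and filled with nuclear copies added. In input the values lie between −0.22 and 0.32, and in polysome all 6 are below 0. Polysome over input is lower in Rosi than in Veh for each mRNA.

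Polysome over input asks which mRNAs were over- or under-represented in the heavy fractions, relative to the other genes of the same libraries since the scaling centres all genes near 0. It uses the polysome libraries on which the genes were chosen, so the values describe them. In Veh none of the 6 passed an absolute log2 fold change of 1 with an adjusted p under 0.05, with edgeR, DESeq2 or limma, where edgeR called 9.67% of genes. The log2 values were 0.66 ± 0.15 for mt-Cytb and 0.47 ± 0.11 for mt-Co1, both above 0. They were −0.87 ± 0.25 for mt-Atp6, −0.61 ± 0.16 for mt-Atp8, −0.58 ± 0.26 for mt-Co2 and −0.21 ± 0.15 for mt-Co3. Without a fold threshold mt-Cytb, mt-Co1, mt-Atp6 and mt-Atp8 passed, 4 of the 6 where 49.3% of genes did. Without adjustment 5 of the 6 had a p under 0.05, where 7770 of 14042 genes did. These counts for the 6 describe libraries on which they were chosen and are no test of them. With copies added mt-Co1, whose copy held more of the reads in input than in polysome, was at 0.24 ± 0.11 and did not pass. The libraries of the fractions did not overlap for 5 of the 6, all but mt-Co3, where 64.0% of genes did not, with copies added. As deposited mt-Atp6 passed the threshold of 1 without polysome Veh replicate 1 (−1.01), and just passed it without replicate 2.

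In Rosi, whose low polysome values led to the choice, 3 of the 6 passed the same thresholds, lower in polysome, where edgeR called 11.3% of genes in either direction and 4.86% lower. They were mt-Co2 at −1.57 ± 0.24, mt-Atp6 at −1.44 ± 0.23 and mt-Atp8 at −1.36 ± 0.15, which is 2.97-, 2.70- and 2.56-fold lower. With copies added the same 3 passed, at −1.52 ± 0.13, −1.64 ± 0.15 and −1.36 ± 0.14, where 11.3% of genes were called and 4.85% called lower. Of the other 3, mt-Co3 was at −0.83 ± 0.13, mt-Co1 at −0.27 ± 0.10 and mt-Cytb at 0.10 ± 0.13, the last at −0.09 without polysome Rosi replicate 3. Without a fold threshold 5 of the 6 passed, all but mt-Cytb, where 55.1% of genes did. With copies added the fractions did not overlap for the same 5, each lower in polysome, where 65.4% of genes did not overlap in either direction.

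The change of polysome over input between treatments, the interaction of fraction and treatment, called 0 of the 6 and 0% of all 14042 genes with edgeR, as deposited and with copies added (0% of 14037). Its log2 values were −0.56 for mt-Cytb, −0.73 for mt-Co1, −0.99 for mt-Co2, −0.62 for mt-Co3, −0.56 for mt-Atp6 and −0.75 for mt-Atp8, with a median of −0.67 against 0.06 over all genes. As deposited no member reached the size of 1 that a call needs, so the fold limit alone left all 6 uncalled. With copies added mt-Co2 was at −1.18 ± 0.19, beyond that size, and mt-Atp6 at −0.86 ± 0.23. In both versions the adjusted p of all 6 was over 0.05, which left mt-Co2 uncalled with copies added. The interaction contains the polysome values on which the genes were chosen, so these outcomes describe the choice. Without adjustment p was under 0.05 for 961 of all genes. DESeq2 and limma called 0 of the 6 as deposited, and DESeq2 called 1 with copies added.

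The other mitochondrial mRNAs give the nearest comparison. Among the 7 of complex I, NADH dehydrogenase, mt-Nd3 also has a nuclear copy. Gm28438 held 15.9 to 70.7% of the reads of its pair with mt-Nd3 in polysome Veh, 3.04 to 59.0% in polysome Rosi, 8.91 to 13.9% in input Veh and 16.7 to 42.0% in input Rosi. The 7 had negative log2 fold changes between Rosi and Veh in polysome, with a median of −0.52. As deposited 1 was called, mt-Nd1 (−0.77), and with copies added 2 were, mt-Nd1 (−0.77) and mt-Nd3 (−1.09 ± 0.17). In input as deposited, 6 of the 7 were above 0, with a median of 0.29 against 0.01 over all genes. Without adjustment p was under 0.05 for 5 of the 7, all higher, where 2312 of 13603 genes passed, 1252 of them higher. After adjustment 1 of the 7 was called higher with Rosi (mt-Nd4l, 0.47 ± 0.09, adjusted p = 0.0297), in both versions. Polysome over input called mt-Nd3 lower in Veh, at −1.89 ± 0.37 as deposited and −1.46 ± 0.19 with copies added. In Rosi it called mt-Nd1 (−1.71), mt-Nd2 (−1.57) and mt-Nd3 (−2.44, and −2.47 with copies added) lower in both versions, 3 of 7 beside 3 of the 6 mRNAs of complexes III to V. In the interaction as deposited, all 7 were below 0, with a median of −0.65 beside −0.67 for the 6, and 0 were called.

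Mitochondrial genes of greater annotated length tended to stand higher in polysome over input. With copies added, the log2 value over the 13 mRNAs had a Pearson r with annotated length of 0.55 in Veh and 0.54 in Rosi (Spearman 0.49 and 0.44). Among the 6, Pearson r was 0.76 in Veh and 0.72 in Rosi (Spearman 0.89 and 0.77). These describe genes that share the same libraries, with 1 point per annotated gene, so no test is attached. The points are not all separate mRNAs. Since mt-Atp8 and mt-Atp6 share 1 bicistronic mRNA, their annotated lengths are not the length of that mRNA. The annotated mt-Nd4l (chrM:9877-10173) and mt-Nd4 (chrM:10167-11544) overlap too.

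**Figure D4:**
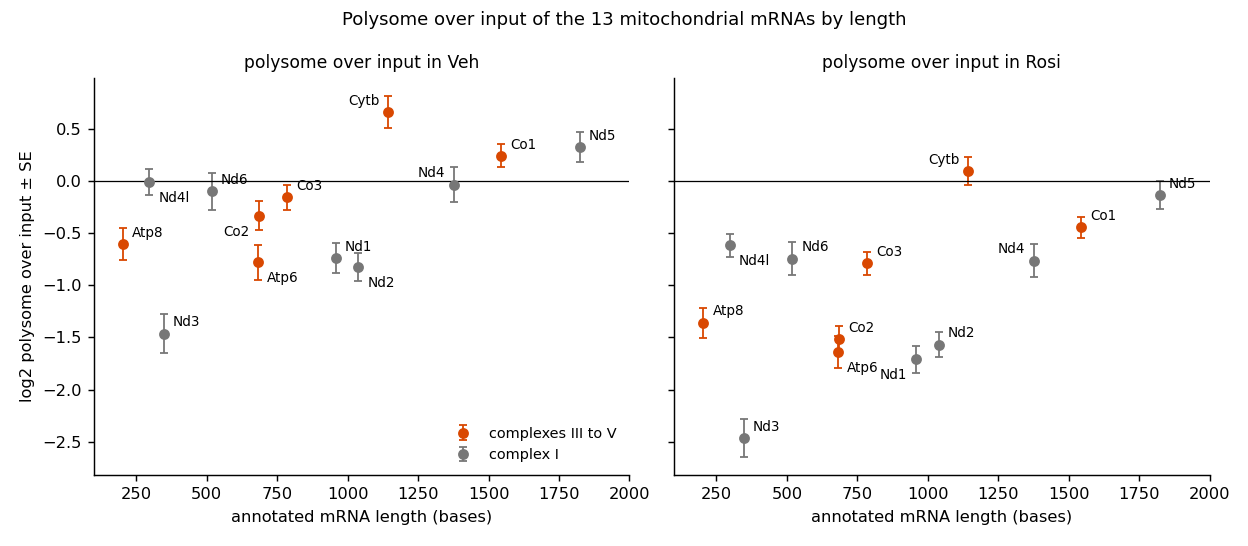
Log2 polysome over input ± SE (vertical axis, edgeR fit with nuclear copies added) against annotated length in bases (horizontal axis) for the 13 mitochondrial mRNAs, in Veh (left) and Rosi (right), with the 6 of complexes III to V in orange. The short mt-Atp8 and mt-Atp6 lie below mt-Cytb and mt-Co1 in both panels, and each mRNA lies lower in Rosi than in Veh.

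As a sum with copies added, the 6 mRNAs took 0.985% of scaled reads in input Veh, 1.03% in input Rosi, 1.01% in polysome Veh and 0.648% in polysome Rosi. Library by library the sum was 9412 and 10286 CPM in input Veh, 10816, 10490.6 and 9461 CPM in input Rosi, 10836, 10186 and 9266 CPM in polysome Veh and 6263, 5579.5 and 7599 CPM in polysome Rosi. The first 3 groups overlapped, and polysome Rosi lay below all of them at 0.642 of the polysome Veh mean. Relative to the complex I mitochondrial mRNAs of the same library, a ratio that does not depend on scaling, the sum was 2.61 ± 0.04 in input Veh, 2.35 ± 0.11 in input Rosi, 3.30 ± 0.17 in polysome Veh and 2.97 ± 0.21 in polysome Rosi (mean ± SD). This ratio was higher in polysome than in input in both treatments with no overlap, lower in input Rosi than in input Veh with no overlap, and overlapping between the polysome groups. Relative to 38 nuclear-encoded subunits of complexes III to V, the sum was 1.36 ± 0.01 in input Veh, 1.58 ± 0.04 in input Rosi, 1.35 ± 0.03 in polysome Veh and 0.811 ± 0.102 in polysome Rosi. The balance of mitochondrial to nuclear mRNAs of these complexes was thus lowest in polysome Rosi, in every library, and highest in input Rosi.

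**Figure D5:**
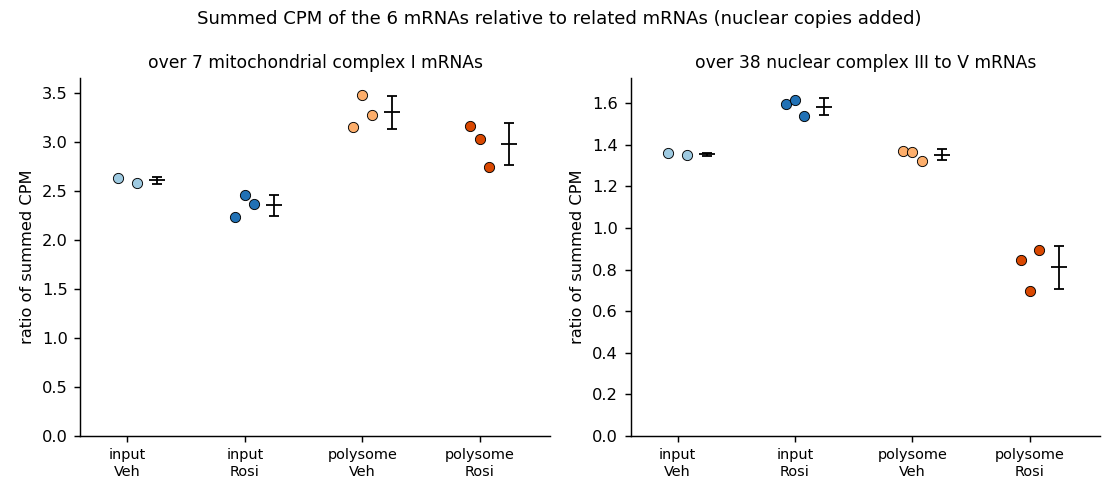
Summed CPM of the 6 mRNAs, nuclear copies added, divided by that of the 7 mitochondrial complex I mRNAs (left) and of 38 nuclear-encoded subunits of complexes III to V (right), with 1 point per library and the mean and SD of each group. On the right polysome Rosi is at 0.811 and every other group above 1.3.

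The nuclear-encoded partner subunits of the same complexes were measured in the same libraries. Of 9 nuclear subunits of complex III, 12 of complex IV and 17 of complex V, edgeR called 0 between Rosi and Veh in either fraction, with median log2 fold changes in polysome of 0.12, 0.17 and 0.09. Without adjustment, p was under 0.05 for 0 in polysome, where 636 of 13436 genes passed. In input it was for 1 higher and 6 lower, where 1252 of 13603 genes were higher and 1060 lower. DESeq2 called 2 in input, Uqcrc1 and Atp5md, both lower, and 0 in polysome, while limma called 0 in both. Polysome over input in Veh called 1 complex III subunit higher (Uqcrb, 1.00) and 1 lower (Uqcrc1, −1.02), and 2 complex IV subunits higher (Cox7b, 1.02, and Cox6c, 1.02). In Rosi it called 8 higher and 0 lower, among them Uqcrb (1.32), Cox7b (1.36), Cox7a2 (1.19), Atp5mpl (1.26) and Atp5j2 (1.10), all small subunits of their complexes. The background of 9.67% of genes called in Veh and 11.3% in Rosi applies to these counts.

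Genes that make, process and translate mitochondrial mRNAs were not called between Rosi and Veh by edgeR, in either fraction, in 9 genes of mitochondrial transcription, 22 of RNA processing and stability, 11 of translation and 28 assembly factors of complexes III to V. Without adjustment, p was under 0.05 for 6 higher and 2 lower in input and for 1 higher and 1 lower in polysome. Over all genes it was for 1252 higher and 1060 lower of 13603 in input, and 344 higher and 292 lower of 13436 in polysome. DESeq2 and limma called 0 of the listed genes. In polysome over input, 1 of the 9 transcription genes was lower in Veh, Polrmt, the mitochondrial RNA polymerase (−1.36 ± 0.17, adjusted p = 1.28e-05), and 1 was higher in Rosi, its transcription factor Tfb2m (1.07 ± 0.12, adjusted p = 2.86e-06). Of the 22 RNA processing genes, 1 was higher and 1 lower in Veh and 2 were higher in Rosi. Slirp, which binds and stabilizes mitochondrial mRNAs, was higher in both treatments (1.04 in Veh and 1.29 in Rosi), Ptcd1 was lower in Veh (−1.22) and Trmt10c, a subunit of mitochondrial RNase P, higher in Rosi (1.00). Of the 11 translation factors, the release factor Mtrf1 was higher in both (1.20 in Veh and 1.32 in Rosi), and Tufm, the mitochondrial elongation factor, was lower in Veh (−1.01). Of the 28 assembly factors edgeR, DESeq2 and limma called 0 in Veh, and edgeR called 1 in Rosi, Cox16, higher (1.07). Without adjustment, edgeR p in Veh was under 0.05 for 17 higher and 1 lower, where 3908 of 14042 genes were higher and 3862 lower. The edgeR calls of polysome over input stand beside the 9.67% of all genes called in Veh and 11.3% in Rosi.

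Outside the mitochondrial genome, genes were ranked by how closely their log2 CPM followed the mean of the 6, as deposited, over the 11 libraries. Among the 9560 genes whose mean log2 CPM reached 3, the 5 closest were Lyst (Pearson r = 0.94), Rbm47 (r = 0.92), Prcp (r = 0.92), P2rx7 (r = 0.89) and Klhl6 (r = 0.89). With copies added to the 6, r for these 5 was 0.92, 0.89, 0.90, 0.90 and 0.86 in the same order. Lyst, for example, was at 16.4 to 19.0 CPM in polysome Rosi, 19.1 to 22.1 in polysome Veh, 21.9 to 23.4 in input Veh and 20.1 to 24.1 in input Rosi. These values describe likeness over libraries that share groups and carry no test.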

How the data were processed

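The deposited files held, for each library, estimated counts per transcript made by the authors with Salmon against mm10, after demultiplexing with bcl2fastq 2.17, and the authors' TPM values with an effective length for each transcript. The versions of Salmon and the strand setting are not given in the sources used here. Libraries titled eWAT were taken as polysome, since the other kind is titled input.

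Estimated counts were summed to 35523 genes of GENCODE M21 (115973 of 117135 transcripts matched, the rest holding 0.381 to 0.464% of reads) and rounded. edgeR 4.0.16 in R 4.3.3 was used (TMM scaling, filterByExpr, quasi-likelihood F-test, two-sided, Benjamini-Hochberg adjustment over all genes tested), with each fraction fitted alone for Rosi against Veh and the 4 groups together for polysome over input. SE is the log2 fold change divided by the square root of F. The limits for a call were an adjusted p under 0.05 and, on the log2 scale, a fold change beyond 0.2 in size (Rosi against Veh) or beyond 1 (the other comparisons). P-values measure only the spread between these libraries. The titles call them biological replicates, but the number of mice behind them was not given, so part of the spread may be technical. DESeq2 1.42.0 and limma 3.58.1 on log2(TPM + 1), other filters and scalings, copies added and each library left out were alternatives. Scripts were tested on simulated data.

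All 6 genes are named with every library. Of each gene list, at most 3 genes of smallest p per direction are named, and the 5 genes most like the 6 in level. The members, lists and tests were chosen with earlier results of these data known. The mitochondrial rRNAs were not analysed here.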

Additional observations from a re-analysis of the deposited data

Results flagged for a closer look

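The difference of mt-Co1 between the fractions was picked out because all input Rosi libraries lay above the input Veh libraries while all polysome Rosi libraries lay below the polysome Veh libraries. The log2 fold change between Rosi and Veh in polysome less that in input was −0.73 as deposited and −0.69 with nuclear copies added. The pattern was not particular to mt-Co1. Among the complex I mRNAs, the libraries of mt-Nd2 lay apart in the same directions in both versions, and this difference was −0.75 in each. The edgeR interaction across all genes called neither mt-Co1 nor mt-Nd2 in either version. The polysome values are those on which mt-Co1 was chosen.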

How the results depend on the processing

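With n = 2 or 3 a group, the limits are the few libraries, the division of reads between mt-Co2, mt-Atp6, mt-Co3 and mt-Co1 and their nuclear copies, and the short effective length of mt-Atp8. Combinations of added copies with a left-out library, the replicate block, nuclear scaling or DESeq2 were chosen after seeing the data. The cause of the shifts below was not tested. Over all alternatives, the fold changes of the 6 kept direction and call 915 times, gained a call 50 times, lost one 14 times and changed sign 18 times.

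In input, Rosi against Veh called 0 of the 6, and 1 with no count filter, with DESeq2, with all libraries as deposited, and with copies added and DESeq2. Leaving out 1 library gave 0 to 2 as deposited (2 without input Rosi replicate 1) and 0 to 1 with copies added. Its sign changes were small: mt-Atp8 was at 0.010 with library totals, 0.057 with limma, 0.063 with the replicate block (0.063 with copies added too), and between −0.086 and 0.057 with 1 library left out (with copies added, 0.034 without input Veh replicate 2 and 0.057 without input Rosi replicate 3). For mt-Co3 it was 0.010 with limma, 0.0039 with copies and block, and −0.11 to 0.023 with 1 library left out, or 0.046 with copies added and without input Veh replicate 2. For mt-Atp6 with copies added it was 0.11 with the block, and 0.14, 0.0092 and 0.10 without input Veh replicate 2, input Rosi replicate 2 and input Rosi replicate 3. Where 1 input Veh library remained, its spread was taken to be like that of the other groups.

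In polysome the count of 2 became 5 with no count filter, 4 with DESeq2, 0 with limma, 1 with mt-Atp8 and mt-Atp6 summed, 4 with the replicate block, 5 with copies added, and 5 with copies added plus the block, nuclear scaling or DESeq2. It became 3, with mt-Co3 added, with a stricter filter (10 counts in all libraries of a group) and in a joint fit of the 4 groups. Leaving out 1 library gave 0 to 5 as deposited and 1 to 5 with copies added. Replicate numbers were not modelled as pairs in the main fits. Deviations from group means gave r of −0.40 to 0.20 over 15 pairs of libraries with the same number, 3 over 0.1. With n = 2 or 3 a group, these values cannot show whether samples were paired. By the paper, input was total RNA from before fractionation, so the fractions may share cultures. Apart from the polysome count above, the replicate block changed no count.

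Polysome over input called 0 in Veh, and 4 with no fold threshold and 0 to 1 with 1 library left out. In Rosi it called 3, and 5 with no fold threshold, and 3 with any library left out, while mt-Cytb turned to −0.094 without polysome Rosi replicate 3 in both versions. The interaction called 0, and 1 with copies added and DESeq2 or without polysome Veh replicate 1. Of 24 TPM ranks, 12 stayed with the copies' TPM added and 6 with median-ratio counts per kb. With copies added the ratio to complex I mRNAs went from 2.43 to 2.61 in input Veh and from 2.16 to 2.35 in input Rosi, and the ratio to nuclear subunits from 1.26 to 1.36 and from 1.44 to 1.58.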
